A study of Homo sapiens with 36 samples.

Results

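The genes described here are 10 secreted inflammatory mediators, namely IL6, IL1A, IL1B, CXCL8, CXCL1, CXCL2, CXCL3, CCL2, CSF2 and LIF, chosen by name among 18048 genes with values in each table. They were followed in EA.hy926, a human line made by fusing umbilical vein endothelial cells with a lung carcinoma line. The cells were exposed to perfluorooctanoic acid (PFOA), a long-lived fluorinated surfactant. Acute exposure was to 1, 10 or 100 µM for 48 h, and chronic exposure was to 1, 10 or 100 nM, kept up for 6 or for 12 weeks. Vehicle cells at each time received 0.05% DMSO. Each of the 12 groups had 3 biological replicates, giving 36 mRNA libraries of 1 cell line. Cells of the short exposure were lysed in their dish, whereas those of the long exposures were taken at passage, so time and mode of collection cannot be told apart across the 3 times.

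Endothelial cells that sense injury or microbial products release these proteins to draw leukocytes out of the blood. IL-1 alpha and IL-1 beta bind a shared receptor and switch on NF-kB and AP-1, transcription factors that in turn drive IL6, the CXC chemokines and CCL2. CXCL8, CXCL1, CXCL2 and CXCL3 attract neutrophils, CCL2 attracts monocytes, CSF2 encodes the growth factor GM-CSF, and IL6 and LIF signal through the receptor subunit gp130 to JAK kinases and STAT3. The messages are short-lived, since proteins such as tristetraprolin (ZFP36) bind their AU-rich elements and speed their decay.

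In GRCh38.p14 the transcripts map to IL6 at chr7:22727200-22731998, IL1A at chr2:112773925-112784493, IL1B at chr2:112829751-112836779, CCL2 at chr17:34255285-34257203, CSF2 at chr5:132073789-132076170 and LIF at chr22:30240453-30246759. CXCL8 (chr4:73740569-73743716), CXCL1 (chr4:73869393-73871308), CXCL3 (chr4:74036589-74038689) and CXCL2 (chr4:74097040-74099195) lie in a cluster. RefSeq promoter windows of GRCh38.p14 were found for 8 of the 10 genes, CCL2 and LIF being the others. The 150 bases before the annotated start are printed for IL6, CXCL8, IL1A, CSF2 and the CXCL1, CXCL2 and CXCL3 copies. IL6, CXCL8 and IL1A had high values at 6 weeks, and CSF2 did not follow them. The window of IL1B, which was also higher without overlap at 10 nM and 100 nM for 6 weeks, is not printed. Capitals mark matches to GGNNTTNCC, a short form of the NF-kB consensus, and to TGANTCA, the AP-1 consensus, each searched on both strands. The first of these patterns was picked after the sequences had been read.
IL6 (chr7:22727050-22727199, plus strand): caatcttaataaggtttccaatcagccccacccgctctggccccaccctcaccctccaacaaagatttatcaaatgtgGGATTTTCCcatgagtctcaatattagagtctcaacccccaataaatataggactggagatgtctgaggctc
CXCL8 (chr4:73740419-73740568, plus strand): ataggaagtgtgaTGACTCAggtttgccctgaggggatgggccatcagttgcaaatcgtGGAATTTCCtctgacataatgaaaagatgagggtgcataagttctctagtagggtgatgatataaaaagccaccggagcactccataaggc
IL1A (chr2:112784494-112784643, minus strand): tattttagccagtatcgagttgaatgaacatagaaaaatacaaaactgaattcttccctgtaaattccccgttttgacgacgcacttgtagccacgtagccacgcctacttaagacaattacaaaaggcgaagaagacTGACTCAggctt
CSF2 (chr5:132073639-132073788, plus strand): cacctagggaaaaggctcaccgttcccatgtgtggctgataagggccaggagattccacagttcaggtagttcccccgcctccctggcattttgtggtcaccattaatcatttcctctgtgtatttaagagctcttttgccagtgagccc
CXCL1 (chr4:73869243-73869392, plus strand): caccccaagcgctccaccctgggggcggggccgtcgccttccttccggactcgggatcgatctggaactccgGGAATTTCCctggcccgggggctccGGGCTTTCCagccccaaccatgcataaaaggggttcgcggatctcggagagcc
CXCL2 (chr4:74099196-74099345, minus strand): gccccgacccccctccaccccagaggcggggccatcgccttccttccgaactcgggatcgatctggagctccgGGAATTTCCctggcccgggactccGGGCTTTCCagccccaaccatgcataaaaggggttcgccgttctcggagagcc
CXCL3 (chr4:74038690-74038839, minus strand): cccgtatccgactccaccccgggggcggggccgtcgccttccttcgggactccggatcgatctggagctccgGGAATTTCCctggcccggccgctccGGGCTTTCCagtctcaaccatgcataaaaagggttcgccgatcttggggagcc

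The GGNNTTNCC pattern begins 72 bases before the start in IL6 and 91 bases before it in CXCL8. It occurs at 78 and 53 bases in CXCL1 and CXCL3 and at 77 and 53 bases in CXCL2. The search covered the 250 bases before each start, and 14.9% of 27305 promoter windows of that length hold the pattern. TGANTCA, held by 6.59% of those windows, begins 137 bases before the start of CXCL8 and 12 bases before that of IL1A. The letters of neither pattern were found in the windows of IL1B or CSF2. Of these, IL1B was higher without overlap at 10 nM for 6 weeks and CSF2 overlapped. Any relation of the patterns to the values was not tested. Other forms of either binding site were not searched for, so this does not show that such sites are absent. The letters before the starts of CXCL1, CXCL2 and CXCL3 were 87.2% to 89.9% identical between pairs, and their transcripts were 81.8% to 90.6% identical. Between 0.572% and 5.73% of the 50-base windows of 1 of these transcripts recurred in another. How the submitters' counting treated reads from such stretches is not given, so the values of these 3 chemokines are uncertain to that extent.

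All 10 transcripts passed the filter of a mean of at least 10 in every table, and the lowest table mean was that of CXCL3 at 48 h, 12.9. Values are normalised read counts, that is, reads per gene scaled by the size factor of the library. Libraries held 17815292 to 19466331 reads. Of 12 endothelial markers, 10 had means of at least 10 at every time, and KDR and CLDN5 did not. Of 7 epithelial markers, KRT19, CDH1, SFTPC and NKX2-1 had means below 10. Of 8 leukocyte markers, 7 had values, and PTPRC, CD14, LYZ, ITGAM and CD3E had means below 10. The summed leukocyte level ran from 1415 to 7655 and was carried by CD68 (1397 to 7603), while PTPRC, the pan-leukocyte antigen, never exceeded 0.783. Ribosomal protein genes took 9.34% to 22.2% of the normalised counts, and this share differed between groups at 6 weeks. There the 3 vehicle libraries lay between 17.2% and 19.4%, above all 10 nM libraries (9.34% to 13.4%) and all 100 nM libraries (11.7% to 16.2%).

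Unexposed cells already carried most of these messages. Per kilobase of transcript, vehicle cells at 48 h held the most CCL2, with a mean of 1337 normalised counts per kilobase, followed by IL1B at 509.5, CSF2 at 178 and IL1A at 126. CXCL8 stood at 57.9 on that scale, CXCL1 at 45.0, IL6 at 24.3, CXCL2 at 23.0, LIF at 21.0 and CXCL3 at 14.5. By 12 weeks the order on the same scale was IL1B at 1920.4, CCL2 at 695, CXCL8 at 605, IL1A at 520.4, CXCL1 at 381, CSF2 at 351, CXCL2 at 159.9, IL6 at 144, LIF at 99.6 and CXCL3 at 39.6. IL1B was thus the leading message of the set in the late vehicle cultures, and CCL2 in the early ones.

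Vehicle levels differed widely between the 3 times, as the plot of all libraries shows. CXCL8 was at 77.8, 128 and 90.3 in the vehicle libraries of 48 h, at 134, 363 and 287 in those of 6 weeks and at 1599, 437 and 1057 in those of 12 weeks. IL6 was at 32.8, 45.2 and 33.5, then at 16.2, 43.8 and 57.6, and then at 265, 85.2 and 309.9. The CXCL8 groups did not overlap at any time, whereas the IL6 vehicle groups of 48 h and 6 weeks did. Between 48 h and 12 weeks, 8 of the 10 genes had higher, non-overlapping vehicle libraries, against 11.4% of 11951 genes. The ratio of means between these times was 10.4 for CXCL8, 8.46 for CXCL1, 6.95 for CXCL2, 5.92 for IL6, 4.74 for LIF, 4.12 for IL1A, 3.77 for IL1B and 1.98 for CSF2. CCL2 went the other way, with vehicle libraries at 999, 925 and 1047 at 48 h against 566, 324 and 656 at 12 weeks, and 12.5% of genes were lower without overlap. CXCL3 overlapped, at 25.1, 17.7 and 4.06 against 34.5, 24.1 and 69.2. From 6 to 12 weeks, where collection was alike, IL6, IL1A, IL1B, CXCL8, CSF2 and LIF were higher without overlap, 6 of 10 against 5.82% of genes. From 48 h to 6 weeks, IL1B, CXCL8, CXCL1 and CXCL2 were higher without overlap, 4 of 10 against 14.4%. The scales of the 3 tables lay close together. Size factors were estimated jointly from all libraries but vehicle replicate 3 of 6 weeks. The recovered factors tracked these with an SD between 0.00405 and 0.00474 on the log2 scale. Mean offsets were -0.0229 at 48 h, -0.0244 at 6 weeks and -0.0268 at 12 weeks. Against factors estimated within each table the SD was 0.00628 to 0.0106. No test was made across the tables.

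Ordered by group mean, 7 of the 10 genes peaked at 100 nM for 12 weeks. These were IL1A (mean 2225), IL1B (4301), CXCL8 (3089), CXCL1 (731), CXCL2 (221), CXCL3 (103) and LIF (457). No share over all genes stands beside this count. The vehicle means of the same 7 genes were also highest at 12 weeks, so the count mixes time with dose. IL6 peaked at 10 nM for 12 weeks with a mean of 319, CCL2 at 10 nM for 6 weeks with 1421, and CSF2 in the vehicle cells of 12 weeks with 277. Most neighbours in these orders overlapped. Of the 11 neighbouring pairs of each gene, 3 were free of overlap for IL6, 2 each for CXCL8 and CCL2, 1 each for IL1A, IL1B, CXCL1, CXCL2 and LIF, and 0 for CXCL3 and CSF2.

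At 6 weeks the 10 nM cultures held more of each of the 10 messages on average, and none of the differences passed the test. IL6 was at 126, 121 and 158 in the 10 nM libraries against 16.2, 43.8 and 57.6 in the vehicle libraries. All 3 exposed libraries lay above all 3 vehicle libraries, and the log2 fold change was 1.92 ± 0.51 (SE, limma adjusted p = 0.0953, n = 3). CXCL8 was at 523, 1161 and 753 against 134, 363 and 287, without overlap, a log2 fold change of 1.67 ± 0.46. IL1A was at 531, 824 and 733 against 213, 351 and 411.5, again without overlap, a log2 fold change of 1.12 ± 0.32. Both had the same limma adjusted p as IL6, 0.0953.

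The CXC chemokines of the CXCL1 cluster were less uniform. CXCL3 was at 52.8, 48.6 and 62.0 against 19.4, 8.77 and 30.3, a log2 fold change of 1.58 ± 0.59. CXCL2 was at 128, 124 and 152 against 46.9, 70.1 and 121, a log2 fold change of 0.85 ± 0.37. CXCL1 was at 351.5, 275 and 224 against 102, 330 and 147, and vehicle replicate 2 lay within the exposed range. Its log2 fold change was 0.71 ± 0.44.

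IL1B, with the highest counts of the set before division by length, was at 2912, 3081 and 2774 against 1212, 2432 and 1704 (log2 fold change 0.77 ± 0.30). CCL2 was at 1540, 1345 and 1377 against 592, 1064 and 1300 (0.60 ± 0.30), and both were free of overlap. LIF, at 230.3, 291 and 231 against 231, 104 and 164, overlapped through vehicle replicate 1. CSF2 stood apart with 203.5, 186 and 181 against 215, 126 and 212, a log2 fold change of 0.08 ± 0.33.

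Counted over the set at 10 nM, 6 of 10 genes had an unadjusted limma p under 0.05 on the higher side, against 21.8% of 12201 genes, and 7 of 10 were higher without overlap, against 30.6%. None was on the lower side by either measure, against 22.2% and 29.8% of genes. The median log2 fold change of the 10 was 0.81, beside 0.05 over all genes tested. The adjusted test called 0 of 12201 genes (0%), edgeR without vehicle replicate 3 called 0, and 5365 genes had an unadjusted p under 0.05. DESeq2 on recovered reads, with vehicle replicate 3 left out, called IL6, IL1A, CXCL8, CXCL2 and CXCL3 higher (adjusted p 0.026 to 0.0339), 5 of 10 against 8.26% of genes. Limma on the vehicle and 10 nM libraries alone called IL6, IL1A, CXCL8 and CXCL3 higher (adjusted p 0.0157 to 0.0248), 4 of 10 against 18.3%. The vehicle library left out for DESeq2 held the highest vehicle counts of IL6, IL1A, CXCL2 and CXCL3 (57.6, 411.5, 121 and 30.3), though not of CXCL8. The calls therefore depended on the model and on the libraries used.

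At 100 nM for 6 weeks the pattern was similar in sign and smaller in size, with 9 of 10 fitted values above 0 and a median log2 fold change of 0.71, beside 0.04 over all genes. IL6 was at 116, 101 and 108, all above vehicle, with a log2 fold change of 1.62 ± 0.51 (limma adjusted p = 0.272, n = 3). CXCL3 followed at 1.26 ± 0.59, CXCL8 at 1.16 ± 0.46, IL1A at 0.94 ± 0.32 and IL1B at 0.74 ± 0.30 on that scale. CSF2 was at 139, 176 and 219, a log2 fold change of -0.03 ± 0.33. An unadjusted p under 0.05 was reached by 4 of 10 genes on the higher side, against 5.66% of genes, and 5 of 10 were free of overlap, against 22.9%. The 4 became 2 without replicate 1 of the vehicle group or without replicate 3 of the 100 nM group, 2 with the leading component and 0 with the ribosomal share in the model. Shares of all genes in these altered fits are not given. The lower side held 0 of 10 by either measure, against 6.49% and 24.4% of genes. At 1 nM the fitted log2 fold changes of 4 genes were above 0 and those of 6 below it (median -0.21). There 0 of 10 had an unadjusted p under 0.05, against 0.107% of genes on the higher and 0.148% on the lower side, and 0 of 10 were free of overlap, against 0.754% and 0.557%. The 1 nM libraries scattered widely, with IL6 at 80.2, 33.2 and 19.8 and CXCL3 at 41.2, 7.98 and 8.24. Replicate 1 was the high library in both.

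The 6-week trend over doses had a positive slope for all 10 genes, led by IL6 at 0.67 ± 0.16 log2 units per dose step (limma adjusted p = 0.0979, n = 3), CXCL3 at 0.56 ± 0.19 and CXCL8 at 0.54 ± 0.15. An unadjusted p under 0.05 was found for 8 of 10, against 21.6% of genes with a rising and 23.1% with a falling slope. The 8 became 5 with the leading component and 2 with the ribosomal share in the model, where shares of all genes are not given. Leaving out replicate 1 of the 1 nM group moved the count of called genes from 0 to 7084 and that of the set from 0 to 7, with IL6, IL1A, IL1B, CXCL8, CXCL2, CXCL3 and CCL2 called higher against 28.9% of genes (limma adjusted p 0.0031 to 0.0385). DESeq2 without vehicle replicate 3 called the same 7 higher, against 5.25% of genes (adjusted p 0.0195 to 0.0498). That library held the highest vehicle counts of IL6, IL1A, CXCL2, CXCL3 and CCL2, though not of IL1B and CXCL8.

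**Figure D1:**
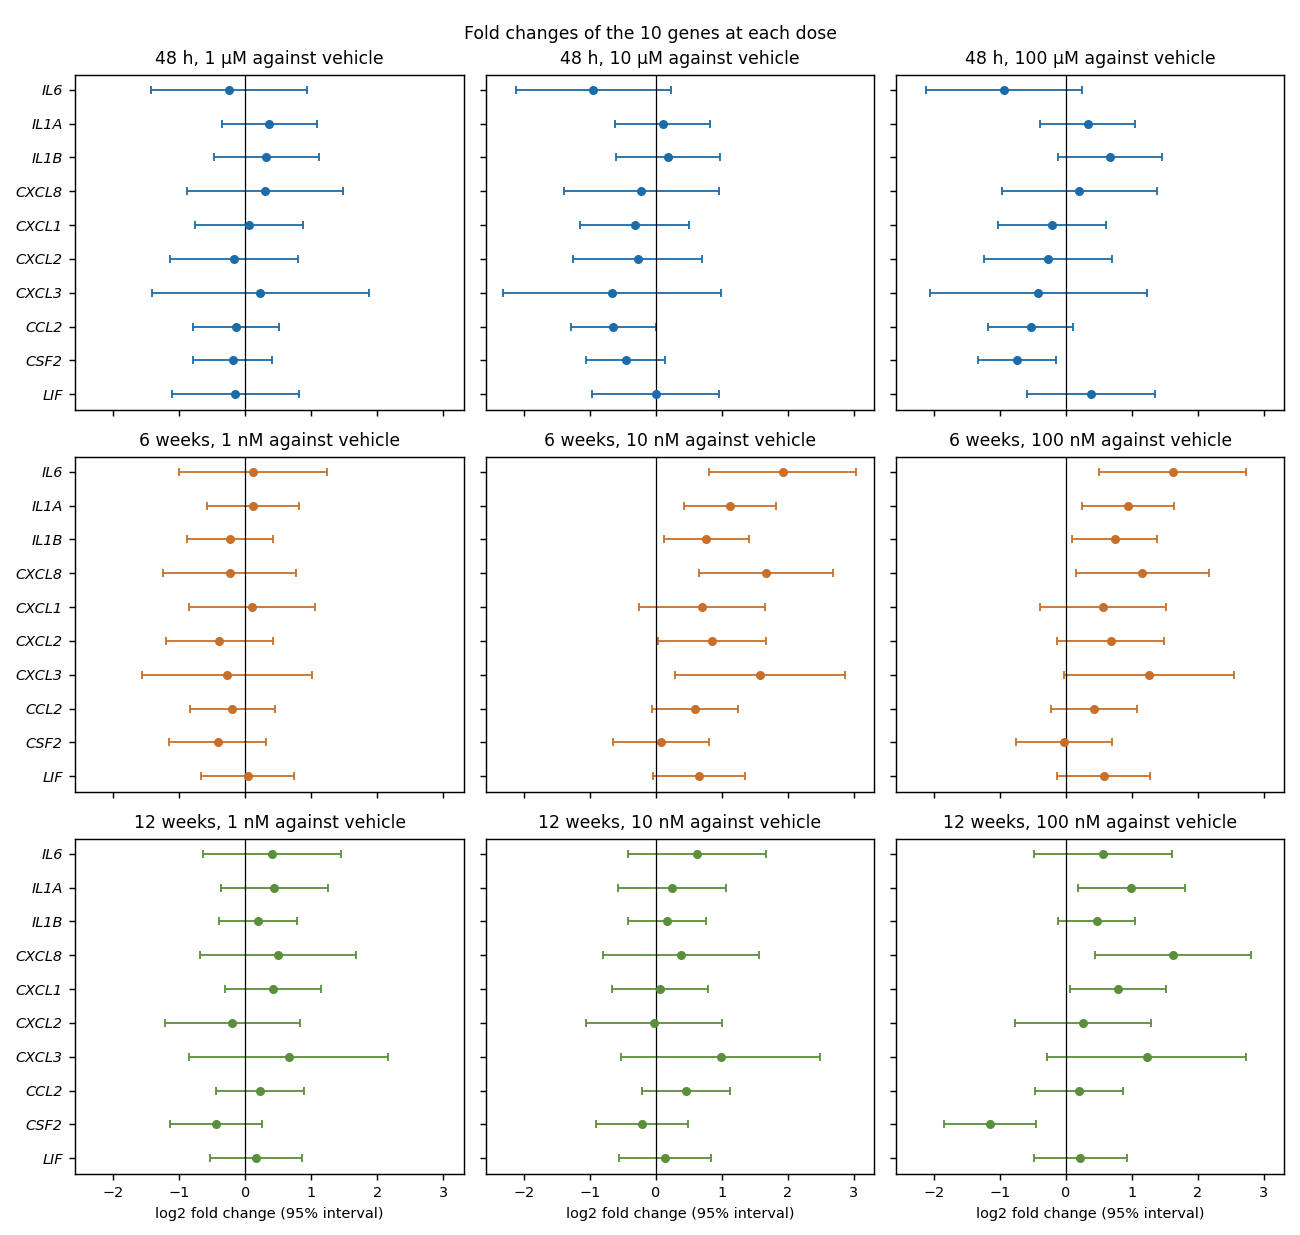
Log2 fold changes of the 10 genes (points) with 95% intervals (bars) for each dose against the vehicle of its time, fitted by limma to 12 libraries per time. At 10 nM for 6 weeks all 10 points lie above 0, from 0.08 for CSF2 to 1.92 for IL6, and at 100 nM for 12 weeks CXCL8 (1.62) and CSF2 (-1.15) lie on opposite sides.

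These 6-week values moved with the make-up of the libraries. With the ribosomal share as a covariate, the log2 fold change at 10 nM was 0.81 ± 0.60 for IL6, 0.47 ± 0.48 for CXCL8, 0.38 ± 0.34 for IL1A and 0.17 ± 0.66 for CXCL3. CSF2 moved upward to 0.77 ± 0.39 in the same fit. The median of the 10 was 0.44 with that covariate, and 0 of 10 had an unadjusted p under 0.05. With the leading principal component, which held 83.8% of the variance at 6 weeks, the median was 0.48, and CSF2 (0.73 ± 0.26) and LIF (0.79 ± 0.36) had an unadjusted p under 0.05. No share over all genes stands beside the counts with either covariate, so they show nothing particular to these genes. All 10 values stayed above 0 in both fits, and since the share itself differed between the groups without overlap, share and dose cannot be told apart at 10 and 100 nM. The summed epithelial markers, which are nearly all KRT8 and KRT18, also separated, at 54025 to 90132 in vehicle cells, 13500 to 27087 at 10 nM and 18764 to 37997 at 100 nM. The summed endothelial markers were at 18716 to 39101, 18091 to 20489 and 18137 to 21497, and the summed leukocyte markers at 1639 to 6637, 1415 to 2062 and 1734 to 2220.2. Their part in the cytokine values was not tested.

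After 12 weeks at 100 nM the fitted value of CSF2 was below 0 and those of the other genes of the set were above it, and none passed the adjusted test. At 100 nM, CXCL8 was at 1586, 4940 and 2741 against 1599, 437 and 1057 in vehicle cells. The lowest exposed library lay just under the highest vehicle library, and the log2 fold change was 1.62 ± 0.54 (limma adjusted p = 0.751, n = 3). IL1A was at 1334, 2687 and 2653 against 1312, 724 and 1280, a log2 fold change of 0.99 ± 0.37. CXCL1 was at 592, 1034 and 568 against 498, 281.5 and 475, a log2 fold change of 0.79 ± 0.33. IL1B was at 3808, 5039 and 4055 against 3269, 2484 and 3644, a log2 fold change of 0.46 ± 0.27. The last 3 were free of overlap, 3 of 10 against 2.07% of 12304 genes.

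CSF2 was lower at this dose. It was at 148, 100.4 and 117 in the exposed libraries against 226, 381.5 and 222 in the vehicle libraries, without overlap, where 2.57% of genes were lower without overlap. Its log2 fold change was -1.15 ± 0.32 (unadjusted p = 0.00374, limma adjusted p = 0.751, n = 3), and ran from -1.29 to -0.89 with each library left out. The value was -0.96 ± 0.29 adjusted for the ribosomal share, which was 16.4% to 21.4% in vehicle cells and 11.0% to 19.0% at 100 nM, and -0.92 ± 0.22 adjusted for the leading component. CXCL8 was at 1.36 ± 0.55 and 1.18 ± 0.43 in those fits, IL1A at 0.71 ± 0.33 and 0.69 ± 0.26, IL6 at 0.11 ± 0.39 and 0.03 ± 0.23, and CXCL1 at 0.81 ± 0.34 and 0.69 ± 0.30.

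IL6, the gene with the largest value at 6 weeks, was at 235, 275 and 353 at 100 nM for 12 weeks against 265, 85.2 and 309.9. The groups overlapped, and the log2 fold change of 0.56 ± 0.48 rested on vehicle replicate 2, without which it was -0.014. That library also held the lowest vehicle counts of IL1A, IL1B, CXCL8, CXCL1, CXCL2, CXCL3 and CCL2 and the highest of CSF2 and LIF. CXCL3 was at 108, 46.1 and 155 against 34.5, 24.1 and 69.2 (log2 fold change 1.23 ± 0.69), while CXCL2, CCL2 and LIF had values of 0.26 ± 0.47, 0.19 ± 0.31 and 0.22 ± 0.32.

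Over the set at 100 nM for 12 weeks, 9 fitted values were above 0 and 1 below, with a median log2 fold change of 0.51 beside 0.0032 over all genes. An unadjusted p under 0.05 was reached by CXCL8, IL1A and CXCL1 on the higher side, 3 of 10 against 0.878% of genes, and by CSF2 on the lower side, 1 of 10 against 1.45%. The 3 on the higher side rested on vehicle replicate 2, without which they became 0, with 6 fitted values above 0, 4 below and a median of 0.40. They became 1 without replicate 2 of the 100 nM group, and also 1 when only the vehicle and 100 nM libraries were fitted. CSF2 kept an unadjusted p under 0.05 in each of these fits, for which shares of all genes are not given. Limma and edgeR called 0 of 12304 genes (0%), with 287 at an unadjusted limma p under 0.05, and DESeq2 called 1, not of this set. At 1 nM, IL1A (1430, 1350 and 1569) and CXCL1 (498.5, 630.5 and 507) were higher without overlap, 2 of 10 against 1.66% of genes, with log2 fold changes of 0.44 ± 0.37 and 0.42 ± 0.33, and none was lower without overlap, against 0.805%. An unadjusted p under 0.05 was found for 0 of 10 at this dose, against 0.0894% of genes higher and 0.106% lower. At 10 nM 0 of 10 were free of overlap, against 2.06% of genes higher and 1.22% lower, and 0 of 10 had an unadjusted p under 0.05, against 0.78% and 0.585%. The median there was 0.21. The 12-week trend had slopes of 0.48 ± 0.17 for CXCL8, 0.28 ± 0.12 for IL1A and -0.32 ± 0.10 for CSF2, with a limma adjusted p of 0.657 for each (n = 3). Of the higher slopes 2 of 10 had an unadjusted p under 0.05, against 0.967% of genes, and of the lower slopes 1 of 10, against 1.25%. The 2 became 0 without vehicle replicate 2 or with the ribosomal share in the model, and 1 with the leading component. They also became 1 without replicate 2 of the 1 nM group, or without replicate 2 or 3 of the 10 nM or of the 100 nM group. Shares of all genes in these altered fits are not given.

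The same nominal doses were compared between 12 and 6 weeks by the difference of their effects. At 10 nM all 10 differences were negative, from -1.30 ± 0.73 for IL6 and -1.28 ± 0.75 for CXCL8 to -0.14 ± 0.41 for CCL2, with a median of -0.62. All of their 95% intervals included 0, that of IL6 reaching from -2.83 to 0.23. At 100 nM the difference for CSF2 was -1.11 ± 0.45 (unadjusted p = 0.0225, limma adjusted p = 0.9997, n = 3), 1 of 10 against 0.382% of 12037 genes lower and 0 of 10 against 0.183% higher. That p was no longer under 0.05 with quantile normalization, or without replicate 2 of either vehicle group, replicate 3 of 100 nM for 6 weeks or replicate 2 of 100 nM for 12 weeks. CXCL8 (0.46 ± 0.75) and IL1A (0.05 ± 0.49) had intervals of -1.11 to 2.03 and -0.97 to 1.07. The adjusted test found 0 genes (0%) to differ between the times at any dose, with an unadjusted p under 0.05 for 0 of 10 at 1 nM, against 0.0914% higher and 0.116% lower, and for 0 of 10 at 10 nM, against 0.183% and 0.166%. In all, 25, 42 and 68 genes had an unadjusted p under 0.05 from 1 to 100 nM, and edgeR found 0 that differed.

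At 48 h the micromolar doses went with lower CSF2. Its libraries held 156, 106 and 158 without PFOA, 134, 96.4 and 135 at 1 µM, 102, 77.0 and 127 at 10 µM and 82.7, 90.1 and 73.6 at 100 µM. The 100 µM libraries lay below all vehicle libraries, with a log2 fold change of -0.74 ± 0.27 (unadjusted p = 0.0193, limma adjusted p = 0.993, n = 3). The slope was -0.25 ± 0.09 per dose step (unadjusted p = 0.0143). The ribosomal share was 12.1% to 17.1% in vehicle cells and 13.9% to 19.7% at 100 µM. Adjusted for it, the CSF2 value at 100 µM was -0.94 ± 0.19, and adjusted for the leading component it was -0.87 ± 0.17 (limma adjusted p = 0.1965 in the latter). In the same 2 fits CXCL8 was at 0.70 ± 0.29 and 0.56 ± 0.22, IL1A at 0.61 ± 0.19 and 0.53 ± 0.14 and IL1B at 0.79 ± 0.32 and 0.77 ± 0.28, each with an unadjusted p under 0.05. Without a covariate their unadjusted limma p was 0.711, 0.339 and 0.0904. No share over all genes stands beside the fits with a covariate, so these values show nothing particular to these genes.

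CCL2 was at 999, 925 and 1047 in vehicle cells, at 718, 878 and 403 at 10 µM and at 714, 521 and 853 at 100 µM. Both doses lay below vehicle without overlap, with log2 fold changes of -0.64 ± 0.29 and -0.54 ± 0.29. IL6 was at 32.8, 45.2 and 33.5 in vehicle cells and at 11.6, 10.9 and 49.6 at 100 µM, where the third library exceeded every vehicle library, and its log2 fold change was -0.94 ± 0.54. IL1B, at 1649, 1227 and 971 against 932, 1070 and 491, had a log2 fold change of 0.67 ± 0.36 with overlap. The median of the 10 at 100 µM was -0.24, with 4 fitted values above 0 and 6 below, beside 0.03 over all genes.

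Of the set, 2 of 10 were lower without overlap at 100 µM, CCL2 and CSF2, against 6.46% of 12233 genes, and 2 of 10 at 10 µM, IL6 and CCL2, against 3.52%. None was higher without overlap at these doses, against 4.32% and 2.67%. At 1 µM, IL1A was higher (1.14% of genes) and IL6 lower (1.17% of genes) without overlap. An unadjusted p under 0.05 was found at 100 µM for CSF2 alone, 1 of 10 against 1.29% of genes lower and 0 of 10 against 0.703% higher. It was found for the falling slopes of CSF2 and CCL2, 2 of 10 against 2.88%, and for 0 rising slopes, against 1.37%. The p of CSF2 at 100 µM was not under 0.05 without vehicle replicate 1 or 3 or with quantile normalization, and without vehicle replicate 1 neither falling slope had such a p. Falling slopes with such a p numbered 1 without vehicle replicate 2 or 3, any replicate of 1 µM, or replicate 1 or 2 of 100 µM, and 3 without replicate 2 of 10 µM or replicate 3 of 100 µM. Shares of all genes in these altered fits are not given. At 10 µM 0 of 10 had such a p, against 0.883% higher and 1.94% lower, and at 1 µM 0 of 10, against 0.0409% and 0.00817%. Limma and edgeR called 0 genes (0%) at each dose, with 6, 345 and 244 at an unadjusted limma p under 0.05, and DESeq2 called 1, 1 and 0. CXCL8 had log2 fold changes of 0.30 ± 0.54, -0.22 ± 0.54 and 0.20 ± 0.54 from 1 to 100 µM and 95% intervals that reached from -0.98 to 1.39 at the highest dose. At the highest dose of each time, CSF2 thus had log2 fold changes of -0.74 at 48 h, -0.03 at 6 weeks and -1.15 at 12 weeks.

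**Figure D2:**
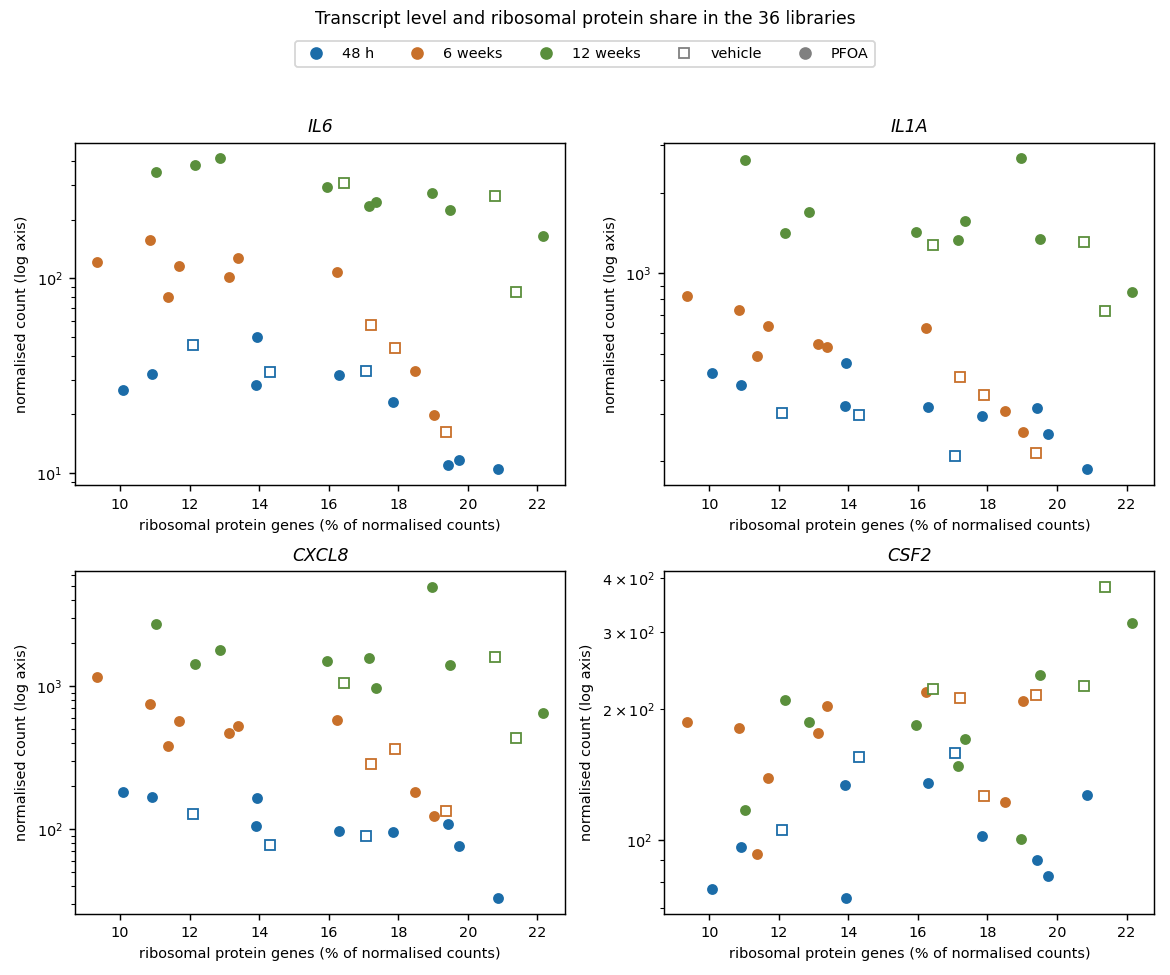
Normalised read count (log axis) of IL6, IL1A, CXCL8 and CSF2 against the share of ribosomal protein genes in percent of normalised counts, for 36 libraries. Colours mark the time, open squares vehicle and filled circles PFOA. At 6 weeks the libraries with a high share have low IL6, IL1A and CXCL8, and CSF2 shows no such fall.

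Replicates of the same group differed along a shared axis. The deviation of each library from its group mean was taken on the log2 scale, so that differences between doses and times drop out, and related to the deviation of the ribosomal share over the 36 libraries. The share enters the same normalised counts as the genes, so the measures have the library and its scaling in common. CXCL3 (r = -0.82, rho = -0.78), IL1A (r = -0.74, rho = -0.71), IL6 (r = -0.66, rho = -0.67) and CXCL8 (r = -0.64, rho = -0.61) were lower where the share was higher. CSF2 went the other way (r = 0.67, rho = 0.66). No share over all genes stands beside the relations with the ribosomal share, here or below. The leading component held 69.2% to 83.8% of the variance at single times, so these relations are descriptions and show nothing particular to these genes. Permutation within groups gave p of 2e-05, 9e-05, 5e-05, 0.00292 and 0.00029 for these values of r and 4e-05, 0.00016, 0.00014, 0.0024 and 0.00029 for rho in the same order. Adjusted over 10 relations, p for r was 0.0002, 0.0003, 0.00025, 0.00584 and 0.000725.

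Without the 2 libraries farthest from the median share, r was -0.76 for CXCL3, -0.68 for IL1A, -0.63 for IL6, -0.55 for CXCL8 and 0.62 for CSF2. Within single times, CSF2 had r of 0.89 at 48 h, 0.66 at 6 weeks and 0.54 at 12 weeks, and CXCL8 had -0.88, -0.74 and -0.34. CXCL2 (r = -0.53, rho = -0.48, permutation p = 0.00602 and 0.0118, adjusted p for r = 0.01) was also lower where the share was higher. CCL2 passed for r (r = -0.46, permutation p = 0.0199, adjusted p = 0.0284) and not for rho (rho = -0.36, permutation p = 0.0611). Without the 2 farthest libraries r was -0.43 for CXCL2 and -0.38 for CCL2. IL1B (r = -0.19, rho = -0.079, permutation p = 0.419 and 0.703, adjusted p for r = 0.465) and CXCL1 (r = -0.14, rho = -0.051, permutation p = 0.547 and 0.819, adjusted p for r = 0.547) showed no relation past the threshold. LIF did not either (r = -0.29, rho = -0.32, permutation p = 0.109 and 0.091, adjusted p for r = 0.136).

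**Figure D3:**
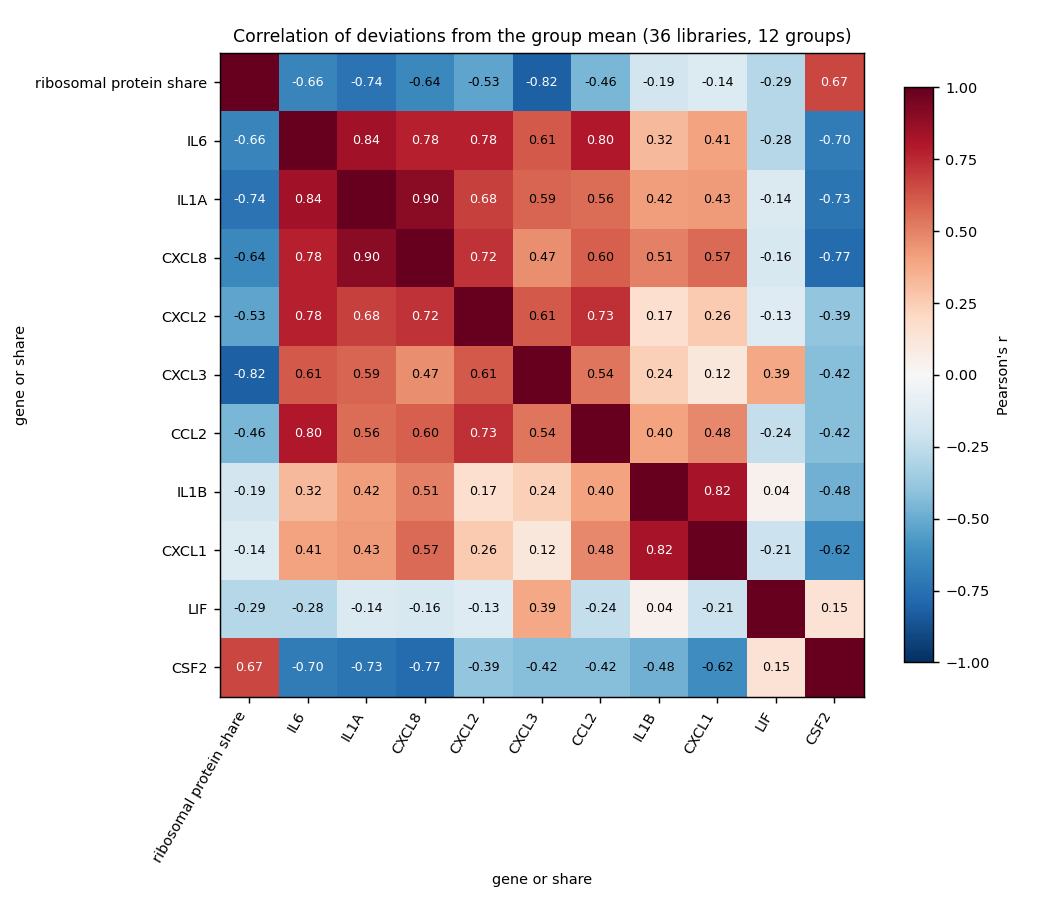
Pearson's r between deviations from the group mean (log2 scale, 36 libraries in 12 groups) for each pair of the 10 genes and the ribosomal protein share. Red cells are positive and blue cells negative, from IL1A with CXCL8 at 0.90 to the ribosomal share with CXCL3 at -0.82, and CSF2 is negative with every other gene of the set but LIF.

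The same deviations ordered the genes among themselves into blocks. Of 45 pairs, 21 had an adjusted p under 0.05 for r, 17 positive and 4 negative. No share over pairs of all genes stands beside this count, and the leading component held 69.2% to 83.8% of the variance at single times, so the count is a description and says nothing particular to these genes. IL1A and CXCL8 were the closest pair (r = 0.90, rho = 0.88, r = 0.88 without the 2 farthest libraries), followed by IL6 and IL1A (r = 0.84, rho = 0.84, r = 0.82 without them). IL1B was closest to CXCL1 (r = 0.82, rho = 0.81, r = 0.84 without them). The adjusted permutation p for r was 0.000225 for each of these 3 pairs, with p for rho of 2e-05. IL6 and CCL2, which encode the acute-phase cytokine and the monocyte chemokine, had r = 0.80 and rho = 0.71 (adjusted permutation p for r = 0.00184, p for rho = 0.00164).

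The 4 negative pairs all held CSF2. It was opposed to CXCL8 (r = -0.77, rho = -0.75), IL1A (r = -0.73, rho = -0.73), IL6 (r = -0.70, rho = -0.72) and CXCL1 (r = -0.62, rho = -0.55). The adjusted permutation p for r was 0.000225, 0.00072, 0.00075 and 0.0124, and p for rho was 5e-05, 6e-05, 2e-05 and 0.00581. Without the 2 farthest libraries r was -0.75, -0.71, -0.70 and -0.50. At each single time CXCL8 and CSF2 stayed opposed, with r of -0.84 at 48 h, -0.70 at 6 weeks and -0.82 at 12 weeks. The other 5 pairs of CSF2 did not pass, with r of -0.48 for IL1B, -0.42 for CXCL3, -0.42 for CCL2, -0.39 for CXCL2 and 0.15 for LIF.

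Messages for several receptors of these mediators were near 0. IL1R1, the signalling receptor of IL-1, had table means of 0.453 to 1.40, CXCR2, a receptor of the CXCL1 family, 0.145 to 2.42, and CCR2, the receptor of CCL2, at most 0.160, while CXCR1 was listed at 0 in every library. IL1R2, ACKR1 and the IL-1 receptor antagonist IL1RN were low as well, with no library above 7.79. In contrast, IL6ST, which encodes gp130, had table means of 776 to 1033, IL6R of 134 to 144 and CSF2RB, the GM-CSF receptor beta chain, of 46.5 to 93.7. At 10 nM for 6 weeks 4 of the 6 tested receptors had an unadjusted p under 0.05 on the higher side and 1 on the lower side, against 21.8% and 22.2% of all genes. They were IL1RAP (log2 fold change 1.48 ± 0.58), LIFR (1.44 ± 0.59), IL6ST (1.24 ± 0.48) and CSF2RB (1.14 ± 0.49), against CSF2RA, the alpha chain, at -1.92 ± 0.65.

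Other NF-kB targets of endothelium divided into 8 low genes and 11 tested genes. TNF, VCAM1 and SELE, the last 2 being adhesion molecules, had table means of at most 0.398, 0.463 and 0.925, and CXCL10 of at most 0.531. Of the 11 tested, 5 were higher and 6 lower at 10 nM for 6 weeks, with 1 at an unadjusted p under 0.05 in each direction. IL33, an alarmin, had a log2 fold change of 1.18 ± 0.40, CSF3, the granulocyte growth factor, of -0.995 ± 0.42, and ICAM1, the leukocyte adhesion molecule, of -0.22 ± 0.50.

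NF-kB subunits and regulators diverged in the same comparison, 5 higher and 8 lower of 13, with 5 and 4 at an unadjusted p under 0.05 and a median of -0.72. The atypical inhibitor NFKBIZ was at 1.71 ± 0.47, NFKB1 at 1.64 ± 0.61 and TNFAIP3, the feedback inhibitor A20, at 1.23 ± 0.47 on the log2 fold change scale. RELB and NFKB2, the subunits of the non-canonical pathway, were at -1.63 ± 0.55 and -1.71 ± 0.64. Of 10 AP-1 and C/EBP genes, 8 were higher and 2 lower, led by FOS at 2.80 ± 0.68, ATF3 at 1.45 ± 0.37 and FOSB at 1.38 ± 0.27. Of 7 genes of mRNA decay and stability, 6 were higher and 1 lower, with ZFP36 at 1.04 ± 0.36. Of 8 tested genes of IL-1 signalling 4 were higher and 4 lower, and of 10 JAK-STAT genes 6 were higher and 4 lower. Of all genes, 51.8% had fitted values above 0. An unadjusted p under 0.05 was found for 3 AP-1 and C/EBP genes on the higher side and 1 on the lower side. The counts were 4 and 0 for genes of mRNA decay and stability, 2 and 1 for IL-1 signalling and 1 and 1 for JAK-STAT. None of these genes passed the adjusted test, and the shares of all genes at an unadjusted p under 0.05 were 21.8% higher and 22.2% lower.

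Values of these lists in some of the other comparisons were as follows. At 100 nM for 12 weeks, ATF3 had a log2 fold change of 0.945 ± 0.33 and STAT5A of -0.78 ± 0.34, and no other gene tested on the 7 lists had an unadjusted p under 0.05. At 100 µM for 48 h all 7 genes of mRNA decay and stability and 9 of 10 AP-1 and C/EBP genes had fitted values below 0. Their medians were -0.45 and -0.52 beside 0.03 over all genes, of which 53.7% were above 0. ZFP36 was at -0.92 ± 0.39, JUND at -0.89 ± 0.26 and FOS at -1.44 ± 0.70. On the lower side 2 genes of mRNA decay and stability, 1 AP-1 gene and 1 NF-kB target had an unadjusted p under 0.05, against 1.29% of genes. At 10 µM for 48 h 3 AP-1 and C/EBP genes, 1 NF-kB target and 1 JAK-STAT gene had such a p on the lower side, against 1.94%. In the 48 h trend FOS, FOSB, JUNB, JUND and CEBPB, 5 of the 10 AP-1 and C/EBP genes, had such a p with a falling slope, against 2.88% of genes. So did 2 genes of mRNA decay and stability, 2 NF-kB targets and 1 of the NF-kB subunits and regulators. At 10 nM for 12 weeks FOS (1.69 ± 0.78), FOSB (1.21 ± 0.37) and ATF3 (0.81 ± 0.33) had one on the higher side, 3 of 10 against 0.78% of genes. There 1 receptor gene also had one on the higher side, and 1 JAK-STAT gene on the lower side, against 0.585%.

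The patterns of IL1B and IL6 over the 36 libraries, after subtracting the mean of each time, were set against genes with a mean of at least 50 in every table. For IL1B the 5 nearest were BMPER (r = 0.83), PLA2G4A (0.80), SGCZ (0.79), ODAD2 (0.77) and KDSR (0.77). For IL6 they were ADM (r = 0.94), BDNF (0.94), BRCC3 (0.93), PLK2 (0.93) and PHLDA1 (0.93). Within the set, IL6 was nearest to CCL2 (r = 0.86) and CXCL2 (0.80), and IL1B to CXCL1 (0.74) and CXCL8 (0.69). These libraries share doses, depth and the ribosomal axis, and the values are descriptions.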

How the data were processed

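Libraries of EA.hy926 mRNA (36 in all) were analysed from 1 table per exposure time. The deposited signal is reads per gene after the authors scaled each library by its size factor. The submitters' processing notes name HISAT, Bowtie2, DESeq2 and GRCh38.p14, with no versions. How reads were counted, and whether by strand, is not given. Each table lists 47137 entries, 18048 of them with values, and 1 entry at 6 weeks that names no gene was left out. Depth was 17815292 to 19466331 reads per library.

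Values above 0 were whole multiples of 1 step in each library (100% within 0.01 of a whole read), so reads were recovered. In control replicate 3 of 6 weeks the step was 1.01, and its values were whole multiples of that step as in the other libraries. A check of units did not accept a step this near 1. For that reason edgeR and DESeq2 left the library out (chosen after seeing the data), and limma kept it.

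The main test was limma 3.58.1 (R 4.3.3) on log2(signal + 1), trend prior, 12 libraries per table, genes with a mean of at least 10, two-sided, Benjamini-Hochberg over all genes tested, threshold 0.05. This scale understates the change of low genes. A trend is the slope per dose step. Effects at 12 and 6 weeks were compared in 24 libraries. The fits were also run on simulated counts that lacked the shared axis of these libraries, so that run does not show their power here. The limit for passing that run was lowered after its result was seen. An exact permutation test of 3 against 3 cannot go below p = 0.1. Replicates are biological per the labels, which do not say how cultures were separated, so p-values measure only the spread between these samples. Deviations from group means were related with 100000 permutations within groups.

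The 10 genes, the pathway lists and the tests were chosen with earlier results of these data known. All 10 genes were described in every comparison. Of a pathway list at most 6 genes, those with the smallest unadjusted p, were to be named with values. Low genes, ICAM1 and the promoter pattern GGNNTTNCC were picked after their values or letters were seen. Alternatives were pseudocounts of 0.1 and 10, filters of none or 50, quantile normalization, a replicate block, the compared groups alone, leaving out each library, edgeR 4.0.16, DESeq2 1.42.0 and 2 covariates. Positions and promoters are from RefSeq, and lengths from the longest transcripts of GENCODE release 29.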

Additional observations from a re-analysis of the deposited data

How the results depend on the processing

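Limits of these data are few replicates and a strong shared axis. Limma called 0 genes in all 15 comparisons, and edgeR also called 0 in all of them. DESeq2 called 1 gene at 1 µM and 1 at 10 µM for 48 h, 2 at 10 nM, 1 at 100 nM and 2 in the trend for 12 weeks, and, without control replicate 3 of 6 weeks, 2 at 1 nM, 3124 at 10 nM, 4 at 100 nM and 3025 in the trend for 6 weeks and 1 in each of the 3 differences between 12 and 6 weeks. At 10 nM for 6 weeks limma on only the groups compared called 4742 genes. In the 6-week trend quantile normalization called 1 gene, and leaving out 1 library gave 0 to 7084, the highest without replicate 1 of 1 nM. At 1 nM for 6 weeks leaving out 1 library gave 0 to 1. The cause of these changes was not tested. The largest shift of the median of all genes under another normalization was -0.15 on the log2 scale, with DESeq2 in the difference between 12 and 6 weeks at 1 nM. Count tests with all 12 libraries of 6 weeks were planned and not run, since the check of units did not accept the step of control replicate 3. CXCL3 at 48 h, with a mean of 12.9, is limited most by depth.

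The replicate block changed no call, with 0 genes in every comparison and 4162 against 5365 genes at an unadjusted p under 0.05 at 10 nM for 6 weeks. Replicate numbers did not pair the libraries, since deviations of same-numbered libraries correlated from -0.89 to 0.89, and the library of another group with the highest correlation had the same number for 6, 3 and 4 of 12 libraries at 48 h, 6 weeks and 12 weeks.

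Of 90 fold changes of the 10 genes against vehicle, 39 changed sign under at least 1 alternative, as did 7 of 30 trends and 12 of 30 differences between times. All of those had a 95% interval that included 0, and 0 of the 15, 13 and 1 values with an interval free of 0 changed sign.
With DESeq2 the sign changed for CXCL8 (0.075) and LIF (-0.040) at 10 µM for 48 h and CXCL2 (0.022) at 10 nM for 12 weeks. With edgeR the sign changed for CXCL8 (0.090) and LIF (-0.055) at 10 µM for 48 h and CXCL2 (0.061) at 10 nM for 12 weeks. With edgeR without control replicate 3 of 6 weeks the sign changed for CXCL1 (-0.12), CXCL2 (0.037), CXCL3 (0.62) and CCL2 (0.018) at 1 nM for 6 weeks, CSF2 (0.14) at 100 nM for 6 weeks, IL6 (-0.40) and CXCL2 (-0.19) in the 12-week minus 6-week difference at 1 nM and IL1A (-0.12) in the 12-week minus 6-week difference at 100 nM. With DESeq2 without that library the sign changed for CXCL1 (-0.13), CXCL2 (0.019), CXCL3 (0.53), CCL2 (0.0028) and LIF (-0.029) at 1 nM for 6 weeks, CSF2 (0.043) at 100 nM for 6 weeks, IL6 (-0.38) and CXCL2 (-0.18) in the 12-week minus 6-week difference at 1 nM and IL1A (-0.078) in the 12-week minus 6-week difference at 100 nM. With the leading component of the libraries in the model the sign changed for CXCL8 (0.17) at 10 µM for 48 h, CXCL3 (0.025) at 100 µM for 48 h, IL6 (-0.025) at 1 nM for 6 weeks, CSF2 (0.46) at 100 nM for 6 weeks, IL1A (-0.10), CXCL8 (-0.13), CXCL1 (-0.060) and CSF2 (0.052) at 10 nM for 12 weeks, CXCL2 (-0.19) and CCL2 (-0.023) at 100 nM for 12 weeks, IL6 (-0.00060) and CXCL2 (-0.066) in the 12 week trend, CSF2 (0.052) in the 12-week minus 6-week difference at 1 nM, CXCL3 (0.00090) and CCL2 (0.084) in the 12-week minus 6-week difference at 10 nM and CXCL3 (0.35) in the 12-week minus 6-week difference at 100 nM. With a pseudocount of 10 the sign changed for LIF (-0.0033) at 10 µM for 48 h and CXCL3 (0.14) in the 12-week minus 6-week difference at 100 nM. With quantile normalization the sign changed for CSF2 (-0.24) at 10 nM for 6 weeks, CSF2 (-0.072) in the 6 week trend, CXCL1 (-0.014) at 10 nM for 12 weeks and CXCL3 (0.060) in the 12-week minus 6-week difference at 100 nM. With the ribosomal share as a covariate the sign changed for CXCL3 (0.26) at 100 µM for 48 h, CXCL2 (0.00040) and CXCL3 (0.036) in the 48 h trend, IL6 (-0.18), IL1A (-0.089) and LIF (-0.032) at 1 nM for 6 weeks, CSF2 (0.37) at 100 nM for 6 weeks, IL1A (-0.040) at 10 nM for 12 weeks, CXCL2 (-0.065) at 100 nM for 12 weeks, CXCL2 (-0.022) in the 12 week trend, CXCL3 (0.20) and CCL2 (0.018) in the 12-week minus 6-week difference at 10 nM and CXCL3 (0.15) in the 12-week minus 6-week difference at 100 nM.

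With 1 library left out at a time, values for 1 µM for 48 h ran from -0.023 to 0.54 for IL1B, from -0.059 to 0.15 for CXCL1, from -0.40 to 0.026 for CXCL2, from -0.48 to 0.70 for CXCL3 and from -0.46 to 0.36 for LIF. For 10 µM for 48 h, they ran from -0.18 to 0.41 for IL1A, from -0.15 to 0.51 for IL1B, from -0.77 to 0.44 for CXCL8, from -0.52 to 0.062 for CXCL1, from -0.56 to 0.060 for CXCL2 and from -0.29 to 0.27 for LIF. For 100 µM for 48 h, they ran from -0.075 to 0.47 for CXCL8, from -0.66 to 0.0048 for CXCL2 and from -1.13 to 0.056 for CXCL3. For the 48 h trend, they ran from -0.074 to 0.089 for CXCL8. For 1 nM for 6 weeks, they ran from -0.42 to 0.57 for IL6, from -0.16 to 0.31 for IL1A, from -0.48 to 0.022 for IL1B, from -0.68 to 0.13 for CXCL8, from -0.26 to 0.58 for CXCL1, from -1.02 to 0.11 for CXCL3, from -0.53 to 0.042 for CCL2 and from -0.26 to 0.31 for LIF. For 10 nM for 6 weeks, they ran from -0.17 to 0.21 for CSF2. For 100 nM for 6 weeks, they ran from -0.29 to 0.13 for CSF2. For the 6 week trend, they ran from -0.035 to 0.090 for CSF2. For 1 nM for 12 weeks, they ran from -0.18 to 0.75 for IL6, from -0.033 to 0.90 for CXCL8, from -0.55 to 0.21 for CXCL2, from -0.085 to 0.42 for CCL2 and from -0.042 to 0.44 for LIF. For 10 nM for 12 weeks, they ran from -0.032 to 0.54 for IL1A, from -0.13 to 0.82 for CXCL8, from -0.20 to 0.21 for CXCL1, from -0.38 to 0.39 for CXCL2, from -0.43 to 0.044 for CSF2 and from -0.062 to 0.42 for LIF. For 100 nM for 12 weeks, they ran from -0.014 to 0.91 for IL6, from -0.092 to 0.50 for CXCL2 and from -0.11 to 0.40 for CCL2. For the 12 week trend, they ran from -0.010 to 0.17 for CXCL2 and from -0.0084 to 0.14 for CCL2. For the 12-week minus 6-week difference at 1 nM, they ran from -0.30 to 0.82 for IL6, from -0.16 to 0.68 for CXCL1, from -0.16 to 0.61 for CXCL2, from -0.29 to 0.29 for CSF2 and from -0.14 to 0.43 for LIF. For the 12-week minus 6-week difference at 10 nM, they ran from -1.07 to 0.21 for CXCL3 and from -0.44 to 0.19 for CCL2. For the 12-week minus 6-week difference at 100 nM, they ran from -0.23 to 0.38 for IL1A, from -0.061 to 0.88 for CXCL8, from -0.24 to 0.60 for CXCL1, from -0.42 to 0.46 for CXCL3 and from -0.54 to 0.10 for CCL2.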
